A study of Mus musculus with 14 samples.

Results

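JAK kinases and STAT factors carry cytokine signals to the nucleus, and their transcripts were followed here through 13 array probes of 9 mouse genes in macrophages. The genes were the kinases Jak1, Jak2, Jak3 and Tyk2 and the factors Stat2, Stat3, Stat4, Stat5a and Stat6. A probe was taken when the RefSeq transcript named for it in the scanner files belonged to one of these genes, which gave 13 of the 55634 probes used, and every probe is shown. The macrophages were grown for 1 week with M-CSF from the marrow of female C57BL/6 mice aged 8 weeks. The first group, transgenic tumour (2 replicates), carried LysM-Double-Cre with the TFEB transgene (transgene+) and was kept for 24 h in DMEM with EO771 tumour-conditioned medium and tumour lysate. The other groups were wild-type tumour (LysM-Double-Cre without it, transgene-, same treatment, 3 replicates), transgenic control (transgene+, DMEM only, 3 replicates) and wild-type control (transgene-, DMEM only, 3 replicates). All groups carry the Cre recombinase, which the LysM promoter drives in myeloid cells, so the genotypes differ by the transgene alone as far as the labels go. EO771 is a mouse mammary tumour cell line, and TFEB is a transcription factor of lysosome and autophagy genes. These labels pose the questions of how each genotype responds to tumour material and how the transgene acts in either medium.

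Cytokine receptors of this pathway have no enzyme activity of their own and hold JAK kinases on their inner tails. When a ligand brings receptor chains together, the kinases phosphorylate the receptor and the STAT proteins that dock there, and the paired STATs enter the nucleus and bind DNA. In macrophages, Stat2 serves the interferon response together with Irf9, Stat3 the IL-6 and IL-10 responses, Stat5a the response to GM-CSF, and Stat6 the response to IL-4 and IL-13. This activation is a change of the protein, and an array measures only the transcript.

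The 14 arrays were one-colour Agilent arrays on 2 slides. In levels and overlaps a replicate with a repeat array counts once, which makes 11 replicates. The fits use all 14 arrays, with a term for arrays of the same replicate. Their estimated correlation was only 0.0581, so a repeat array weighs there almost like a further replicate. On slide 2, wild-type tumour and wild-type control each had only a repeat array of replicate 3, and transgenic control had only replicate 3. All transgenic tumour arrays were on slide 2. Values within slide 2 thus rest on 1 array in each of the other groups, and whether they pass says little. A level is log2 of the background-subtracted signal minus log2 of that array's 75th percentile, so 0 is the 75th percentile, and levels of different probes are not comparable. Levels are not adjusted for slide, while fitted differences are. Between 35.5% and 40.2% of spots per array were well above background, the 75th percentile signal was 83.9 to 144, and no spot was saturated. The number of arrays limits the precision. Nothing in the labels says whether replicates of a group came from separate mice, so p-values measure the spread between these samples, which may be technical. Pairwise correlations within a group were 0.988 or more, except in transgenic control, where they ran from 0.955 to 0.980 and replicate 1 stood apart. Slide column 4 held transgenic control replicates 1 and 2 and the second array of transgenic tumour replicate 3, and there the scanner's spatial correction was larger (0.253 to 0.331, against 0.0964 to 0.126 elsewhere). Transgenic tumour replicate 1 was not analysed here. The Tfeb probe averaged -0.07 ± 0.10 in transgenic tumour and -0.68 ± 0.06 in wild-type tumour (SD, n = 2 and 3), a difference of 0.69 (limma, adjusted p = 0.0289, called in 11 of 24 alternative settings). In control medium it averaged 1.17 ± 0.29 in transgenic and 0.88 ± 0.08 in wild-type cells (SD, n = 3 each), and that difference did not pass (adjusted p = 0.172). Of 8 macrophage markers, 7 were above background on every array of every group, and 0 of 6 epithelial markers were above it on any array. The other macrophage marker, Lyz2, was above it on no transgenic array and on some but not all arrays of each wild-type group. The summed linear level of the macrophage markers was 1669 to 1722 in transgenic tumour and 1777 to 1998 in wild-type tumour. It was 1176 to 1380 in transgenic control and 1371 to 1851 in wild-type control.

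The sequences just before the transcription starts of Stat2, Jak2, Stat3 and Stat4 are printed: Jak2 and Stat2 had the largest rises in both genotypes, Stat3 was the one member called between the genotypes, and the Stat4 start shown is the one of its 2 that holds a match. They hold 250 bases upstream of the start, 5' to 3' on the gene's strand, from RefSeq on GRCm38.p6, where all 9 genes matched, with 11 starts in all. Capitals mark matches to GAAANNGAAA, a form of the interferon-stimulated response element, or to TTCNNNNGAA or TTCNNNGAA, spacings of the palindromes that STAT pairs bind. Both strands were searched.
Stat2, chr10:128270248-128270497, plus strand: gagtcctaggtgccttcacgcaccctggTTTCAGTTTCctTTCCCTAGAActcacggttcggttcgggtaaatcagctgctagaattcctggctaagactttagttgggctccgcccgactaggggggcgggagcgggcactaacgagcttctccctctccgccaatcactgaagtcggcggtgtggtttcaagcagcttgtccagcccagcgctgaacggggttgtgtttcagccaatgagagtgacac
Jak2, chr19:29251553-29251802, plus strand: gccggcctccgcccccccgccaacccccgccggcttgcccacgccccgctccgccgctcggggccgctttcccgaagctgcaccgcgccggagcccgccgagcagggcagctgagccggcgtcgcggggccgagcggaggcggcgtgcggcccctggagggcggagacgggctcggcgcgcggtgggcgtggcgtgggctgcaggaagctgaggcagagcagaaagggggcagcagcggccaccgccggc
Stat3, chr11:100939541-100939790, minus strand: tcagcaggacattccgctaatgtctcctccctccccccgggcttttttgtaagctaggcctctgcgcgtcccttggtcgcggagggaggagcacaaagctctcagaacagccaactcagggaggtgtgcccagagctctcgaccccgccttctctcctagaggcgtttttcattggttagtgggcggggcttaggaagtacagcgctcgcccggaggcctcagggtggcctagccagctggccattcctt
Stat4, second start, chr1:52007990-52008239, plus strand: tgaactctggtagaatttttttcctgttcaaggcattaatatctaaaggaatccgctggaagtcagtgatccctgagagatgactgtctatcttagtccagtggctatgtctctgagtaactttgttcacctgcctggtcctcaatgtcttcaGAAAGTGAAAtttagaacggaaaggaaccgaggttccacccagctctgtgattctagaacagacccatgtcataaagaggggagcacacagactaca
In the Stat2 window GAAANNGAAA matched on the opposite strand at -222 to -213, where it reads TTTCAGTTTC, and TTCNNNNGAA matched at -210 to -201, where it reads TTCCCTAGAA, and the matches do not overlap. The second Stat4 start held GAAAGTGAAA at -97 to -88. Over the 32851 promoter windows, GAAANNGAAA occurred in 2.98%, TTCNNNNGAA in 5.85% and TTCNNNGAA in 7.02%, against 2, 1 and 0 of the 11 windows of these genes. A match describes the letters and is not a binding site, and a window without one says nothing about the factor.

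**Figure D1:**
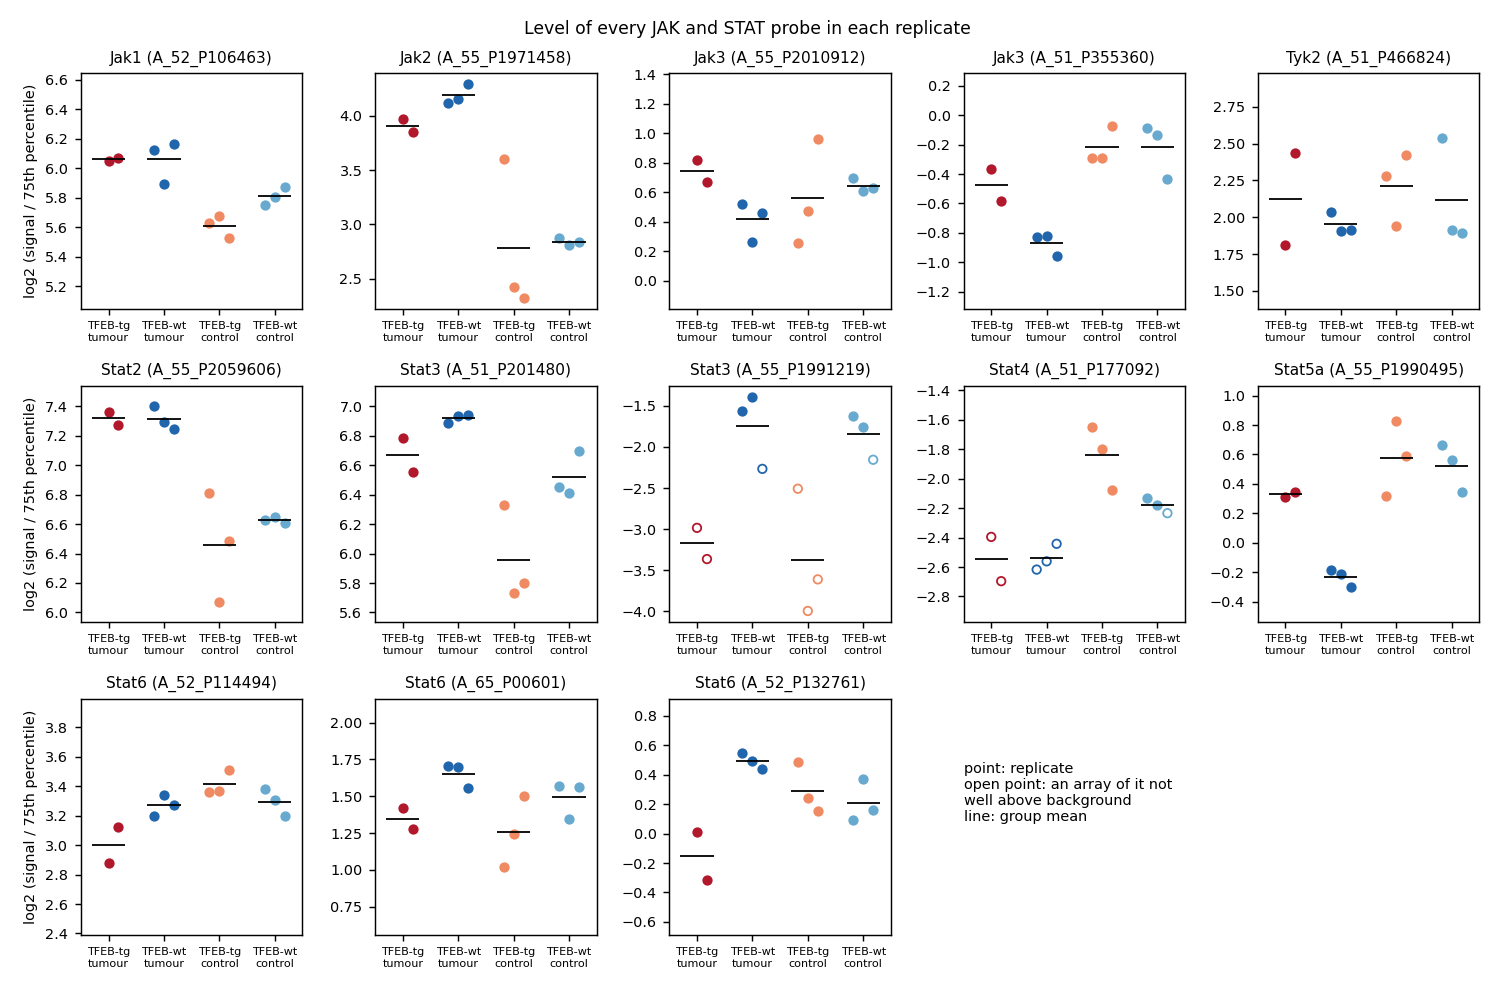
Level of each of the 13 probes (log2 signal relative to the array's 75th percentile) in the 4 groups; each point is a replicate, an open point has an array not well above background, and a line is the group mean. Jak2 and Stat2 lie higher with tumour material in both genotypes, and transgenic control replicate 1 lies above the other transgenic control replicates for Jak2, Stat2 and Stat3.

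Tumour material changed 5 of the 12 probes that passed the filter in wild-type cells, 3 upward (Jak1, Jak2, Stat2; 22.6% of all probes) and 2 downward (1 of the Jak3 probes and Stat5a; 16.9% of all probes). The filter asked that every array of 1 group or more show the probe well above background. Over all 20208 probes tested, 39.4% were called in this comparison, so a share of this size is close to the background, and the members' median difference was 0.06 against 0.04 over all probes. In transgenic cells 5 of the 12 were called, 4 upward (Jak1, Jak2, Stat2, Stat3) and 1 downward (Stat4), against 24.9% of all probes, 14.7% upward and 10.2% downward. The replicates of both media did not overlap for 9 of the 12 probes in wild-type cells, where 57.6% of all probes did not overlap, and for 8 of the 12 in transgenic cells, where 50.1% did not. Overlap was judged on levels not adjusted for slide, so slide is mixed into these counts. Tests are limma fits over all probes with Benjamini-Hochberg adjustment, called at an adjusted p under 0.05. Samples were whole cultures, so fewer cells of a type and less RNA per cell cannot be told apart.

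Jak2, the kinase of the GM-CSF and interferon-gamma receptors, had the largest difference of the 12 probes tested in both genotypes. Its level was 3.97 and 3.85 in transgenic tumour, 4.12, 4.15 and 4.29 in wild-type tumour, 3.61, 2.43 and 2.32 in transgenic control and 2.87, 2.81 and 2.83 in wild-type control. Every tumour replicate lay above every control replicate, and transgenic control replicate 1 stood more than 1 log2 unit above the other transgenic controls. Jak2 rose by 1.38 ± 0.22 (SE) in wild-type cells, 2.59-fold (adjusted p = 0.000418), and by 1.25 ± 0.29 in transgenic cells, 2.37-fold (adjusted p = 0.00784). Within slide 1 the wild-type difference was 1.34. Within slide 2, where each wild-type group had only a repeat array, it was 1.49. The transgenic difference was 1.57 within slide 2, and slide 1 held no transgenic tumour array. The transgenic call was lost without transgenic control replicate 3 or without transgenic tumour replicate 3 (adjusted p up to 0.119).

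Stat2, the partner of Irf9 in the factor that type I interferon activates, rose in both genotypes. Its level was 7.36 and 7.28 in transgenic tumour, 7.40, 7.29 and 7.24 in wild-type tumour, 6.81, 6.07 and 6.48 in transgenic control and 6.63, 6.65 and 6.61 in wild-type control. The tumour groups overlapped each other and lay wholly above both control groups. The rise was 0.67 ± 0.14 (SE) in wild-type cells, 1.6-fold (adjusted p = 0.00226), and 0.87 ± 0.18 in transgenic cells, 1.83-fold (adjusted p = 0.00411). Stat2 differed by 0.70 within slide 1 and 0.60 within slide 2 in wild-type cells and by 0.82 within slide 2 in transgenic cells. Slide 2 held 1 array of each control group and of wild-type tumour.

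Stat3, which transmits IL-6 and IL-10 signals, was measured by probe A_51_P201480, spotted 10 times per array. Its level was 6.78 and 6.56 in transgenic tumour, 6.89, 6.94 and 6.94 in wild-type tumour, 6.33, 5.73 and 5.80 in transgenic control and 6.46, 6.41 and 6.70 in wild-type control. Transgenic controls were lowest, with replicate 1 nearest to the wild-type controls, and no pair of groups that shared a medium or a genotype overlapped. Stat3 rose by 0.67 ± 0.20 (SE) in transgenic cells, 1.59-fold (adjusted p = 0.0306). In wild-type cells the difference was 0.36 ± 0.15 and missed the threshold (adjusted p = 0.0802). The difference between both responses was 0.30 ± 0.25 and did not pass (adjusted p = 0.742), so the responses were not shown to differ. The transgenic call was held in 15 of 24 alternative settings, with an adjusted p of up to 0.254, and was lost within slide 2 at a value of 0.83 and under quantile normalization at 0.49. Without transgenic control replicate 1, the wild-type response of Stat3 passed too (0.35, adjusted p = 0.0151). In that setting 49.7% of all probes were called in wild-type cells, against 39.4% with all replicates.

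The second Stat3 probe, A_55_P1991219, was well above background on 6 of 14 arrays and did not pass the filter. Its level was -2.98 and -3.36 in transgenic tumour, -1.56, -1.39 and -2.27 in wild-type tumour, -2.51, -3.99 and -3.61 in transgenic control and -1.63, -1.76 and -2.16 in wild-type control. All transgenic values lay below all wild-type values, and 0 of 3 arrays in each transgenic group and 3 of 4 in each wild-type group were well above background, so these levels are given without a test. The lowest level well above background also differed by array. It was -3.61 to -3.41 in transgenic control, -3.56 to -2.80 in transgenic tumour and -3.00 to -2.44 on wild-type arrays. Levels this near background are thus hard to compare between the genotypes, and the part of scaling in them was not tested.

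Jak1, the kinase shared by interferon, gp130 and common gamma chain receptors, moved little. Its level was 6.05 and 6.07 in transgenic tumour, 6.12, 5.89 and 6.17 in wild-type tumour, 5.63, 5.68 and 5.52 in transgenic control and 5.75, 5.81 and 5.87 in wild-type control. The tumour replicates lay above the controls of their genotype by a small margin. The rise was 0.26 ± 0.10 (SE) in wild-type cells (adjusted p = 0.0492) and 0.43 ± 0.13 in transgenic cells (adjusted p = 0.0281). The Jak1 call was held in 7 of 25 alternative settings in wild-type cells, with a difference of 0.09 under quantile normalization (adjusted p = 0.487), and in 14 of 24 in transgenic cells.

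Stat5a, a factor of GM-CSF and IL-3 signals, fell in wild-type cells. Its level was 0.31 and 0.35 in transgenic tumour, -0.19, -0.21 and -0.30 in wild-type tumour, 0.31, 0.83 and 0.59 in transgenic control and 0.66, 0.57 and 0.35 in wild-type control. Wild-type tumour replicates lay below every other replicate, and transgenic tumour replicates overlapped the low end of their controls. Stat5a fell by 0.73 on the log2 scale in wild-type cells (SE 0.14, 1.66-fold lower, adjusted p = 0.00174), and the transgenic difference of -0.19 ± 0.19 did not pass (adjusted p = 0.511). The test of the difference between both responses gave 0.54 ± 0.24 (adjusted p = 0.386), which does not show that they differ. Within slides the wild-type value was -0.79 on slide 1 and -0.54 on slide 2, where each wild-type group had only a repeat array.

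Jak3, the kinase paired with the common gamma chain, had 2 probes, which name different transcripts of the gene. Probe A_51_P355360 read -0.36 and -0.58 in transgenic tumour, -0.83, -0.82 and -0.96 in wild-type tumour, -0.29, -0.29 and -0.07 in transgenic control and -0.08, -0.14 and -0.43 in wild-type control. The wild-type tumour values were below all others, and this probe fell by 0.62 on the log2 scale in wild-type cells (SE 0.13, 1.54-fold lower, adjusted p = 0.00235). Its transgenic difference was -0.17 ± 0.17 (adjusted p = 0.518). Probe A_55_P2010912 read 0.82 and 0.67 in transgenic tumour, 0.52, 0.26 and 0.46 in wild-type tumour, 0.26, 0.47 and 0.96 in transgenic control and 0.69, 0.61 and 0.63 in wild-type control. For that probe the wild-type difference of -0.21 ± 0.13 did not pass (adjusted p = 0.201), nor did the transgenic one (-0.00 ± 0.16, adjusted p = 0.998). The 2 Jak3 probes disagreed on the call, and over the 11 replicates their levels correlated at r = 0.50, a description of samples that share arrays and groups. The Jak3 call of probe A_51_P355360 was lost with normexp background correction. Its wild-type difference was -0.70 within slide 1 and -0.37 within slide 2, where each wild-type group had only a repeat array.

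Stat4, the IL-12 factor of lymphocytes, lay near the detection limit, with 7 of 14 arrays well above background. Its level was -2.40 and -2.70 in transgenic tumour, -2.62, -2.56 and -2.44 in wild-type tumour, -1.65, -1.80 and -2.07 in transgenic control and -2.13, -2.18 and -2.23 in wild-type control. The transgenic controls were highest and did not overlap any other group. No transgenic tumour array was well above background, so the transgenic fall is a bound of at least 1.63-fold lower, from measured means of -2.55 with tumour material and -1.84 without it (adjusted p = 0.0219). In that bound the dim mean stands for, per array, the higher of the probe's own signal and the lowest signal well above background. The call was lost in 6 of 23 alternative settings, among them without transgenic tumour replicate 3, without the arrays of slide column 4 and within slide 2. Stat4 passed the filter through the transgenic control group alone, where it was highest. Its fall and its place in the counts of called and non-overlapping members were thus partly fixed by that selection. The wild-type difference was -0.32 ± 0.17 and did not pass (adjusted p = 0.149). T and NK cell markers were not uniform beside it: their summed linear level was 7.21 to 7.29 in transgenic tumour, 4.34 to 6.71 in wild-type tumour, 6.69 to 20.6 in transgenic control and 6.42 to 7.17 in wild-type control. Cd3d, Cd3g, Cd8a and Ncr1 were above background on no array of any group, and 2 of the 7 markers were above it on every array. The part of these cells in the Stat4 result was not tested.

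Stat6, the IL-4 and IL-13 factor, had 3 probes of the same transcript, and none was called in either genotype. Probe A_52_P114494 read 2.88 and 3.12 in transgenic tumour, 3.20, 3.34 and 3.27 in wild-type tumour, 3.36, 3.37 and 3.51 in transgenic control and 3.38, 3.30 and 3.20 in wild-type control. Probe A_65_P00601 read 1.42 and 1.28 in transgenic tumour, 1.70, 1.70 and 1.56 in wild-type tumour, 1.02, 1.24 and 1.5 in transgenic control and 1.57, 1.35 and 1.56 in wild-type control. Probe A_52_P132761 read 0.01 and -0.32 in transgenic tumour, 0.55, 0.49 and 0.44 in wild-type tumour, 0.48, 0.24 and 0.15 in transgenic control and 0.09, 0.37 and 0.16 in wild-type control. On all 3 Stat6 probes the transgenic tumour values lay below the wild-type tumour values. The wild-type responses were -0.00, 0.12 and 0.28 in that probe order (adjusted p = 0.985, 0.460 and 0.170), with 95% intervals from -0.25 to 0.25, -0.15 to 0.39 and -0.05 to 0.62. The transgenic responses were -0.32, -0.02 and -0.48 (adjusted p = 0.155, 0.932 and 0.109). Correlations between the Stat6 probes over the 11 replicates were -0.03, 0.38 and 0.21, so the 3 probes did not follow one another closely.

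Tyk2, the kinase of the type I interferon and IL-12 receptors, showed no call in any comparison. Its level was 1.81 and 2.44 in transgenic tumour, 2.03, 1.91 and 1.91 in wild-type tumour, 2.28, 1.94 and 2.42 in transgenic control and 2.54, 1.91 and 1.89 in wild-type control. All 4 groups overlapped, and replicates of 1 group spread as widely as the groups. The Tyk2 response was 0.07 in transgenic cells (95% interval -0.55 to 0.69) and -0.12 in wild-type cells (-0.59 to 0.35), and those intervals do not exclude changes in either direction.

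**Figure D2:**
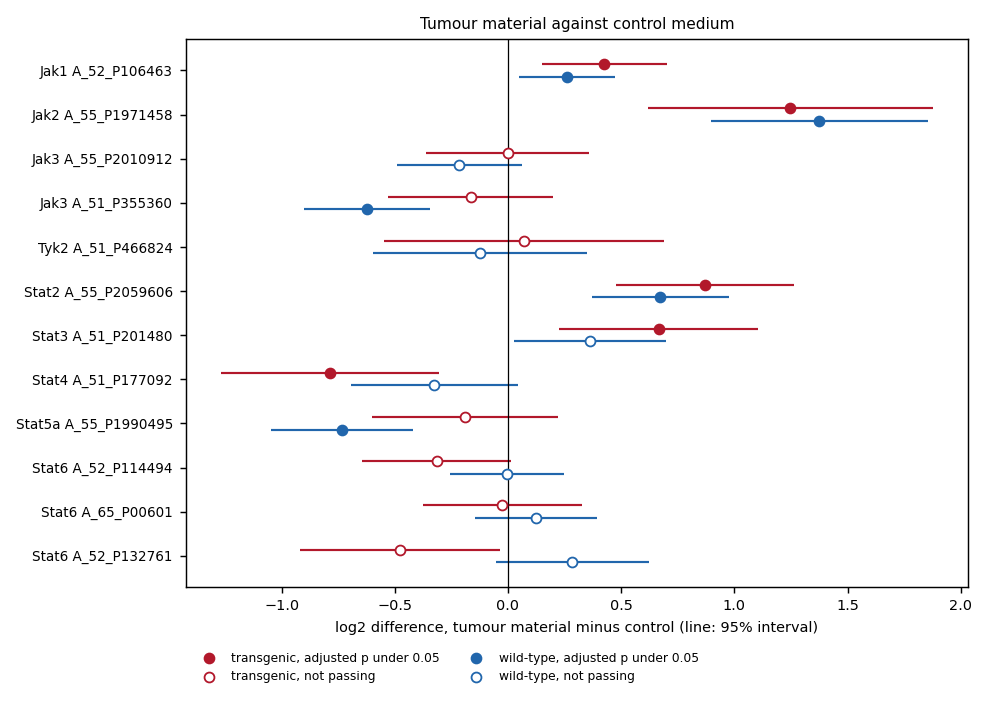
Tumour material minus control medium (log2 difference, x axis) for the 12 probes tested, in transgenic and wild-type cells; points are fitted differences, filled where the adjusted p is under 0.05, and lines are 95% intervals. Jak2 has the largest difference in both genotypes (1.25 in transgenic and 1.38 in wild-type cells).

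Between the genotypes in tumour material, 0 of the 12 probes were called, against 4.36% of all probes. Limma's unadjusted p was under 0.05 for 3691 of the 20208 probes tested and for 4 of the 12, with no other test run. Those 4 were Stat5a (0.64 ± 0.19 SE, adjusted p = 0.0802), Stat6 probe A_52_P132761 (-0.66 ± 0.20, adjusted p = 0.0952), Jak3 probe A_51_P355360 (0.52 ± 0.17, adjusted p = 0.111) and Stat6 probe A_65_P00601 (-0.41 ± 0.16, adjusted p = 0.189). For Stat5a, both transgenic tumour replicates lay above all 3 wild-type tumour replicates. Genotypes did not overlap for 8 of the 12 probes, against 47.3% of all probes. These levels are not adjusted for slide, and all transgenic tumour arrays were on slide 2, so slide and genotype are mixed in this count. Leaving out transgenic control replicate 1 raised the share called from 4.36% to 12.8% of all probes. That replicate is in neither group compared and acts here only through the fit shared by all groups. In that setting 3 of these differences passed: Stat5a (0.72, adjusted p = 0.00718), Stat6 probe A_52_P132761 (-0.70, adjusted p = 0.0243) and Jak3 probe A_51_P355360 (0.53, adjusted p = 0.0403). Within slide 2, the only slide with transgenic tumour arrays, the values were 0.59, -0.62 and 0.53, with 1 wild-type tumour array in that fit. For Jak2, Stat2 and Jak1 the differences were -0.16, 0.03 and -0.05, with 95% intervals from -0.78 to 0.46, -0.35 to 0.42 and -0.33 to 0.22.

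In control medium, Stat3 was the one member called between the genotypes, 1 of 12 probes against 8.38% of all probes, 5% downward. It fell by 0.61 on the log2 scale in transgenic cells (SE 0.17, 1.53-fold lower, adjusted p = 0.0420), with every transgenic control replicate below every wild-type one. The Stat3 difference kept its sign in 25 of 25 alternative settings, from -0.93 to -0.45. It kept its call in 7 of them, which did not include repeat arrays averaged or repeat arrays left out. Within slide 1 it was -0.48 and did not pass. Within slide 2, with 1 array of each genotype, it was -0.93. The difference was -0.46 with a term for slide column 4 and -0.56 under quantile normalization, neither of which passed. Without transgenic control replicate 1 it was -0.85 (adjusted p = 0.00146). Jak2 passed too without that replicate (-0.46, adjusted p = 0.0115), where 16.4% of all probes were called. Replicates of the genotypes did not overlap for 3 of the 12 probes (Jak1, Stat3 and Stat4), against 21.4% of all probes. Stat4 passed the filter through transgenic control alone, so its higher level there and its place in this count were partly fixed by that selection. The differences of Jak1 and Stat4 were -0.22 and 0.35 and did not pass (adjusted p = 0.220 and 0.260).

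The test of the difference between both tumour responses called 0 of the 12 probes, against 1.6% of all probes. Limma's unadjusted p was under 0.05 for 2399 of the 20208 probes tested and for 2 of the 12, with no other test run. These were Stat6 probe A_52_P132761 (-0.76 ± 0.25 SE, adjusted p = 0.211) and Stat5a (0.54 ± 0.24, adjusted p = 0.386). No member's response was thus shown to depend on the transgene.

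**Figure D3:**
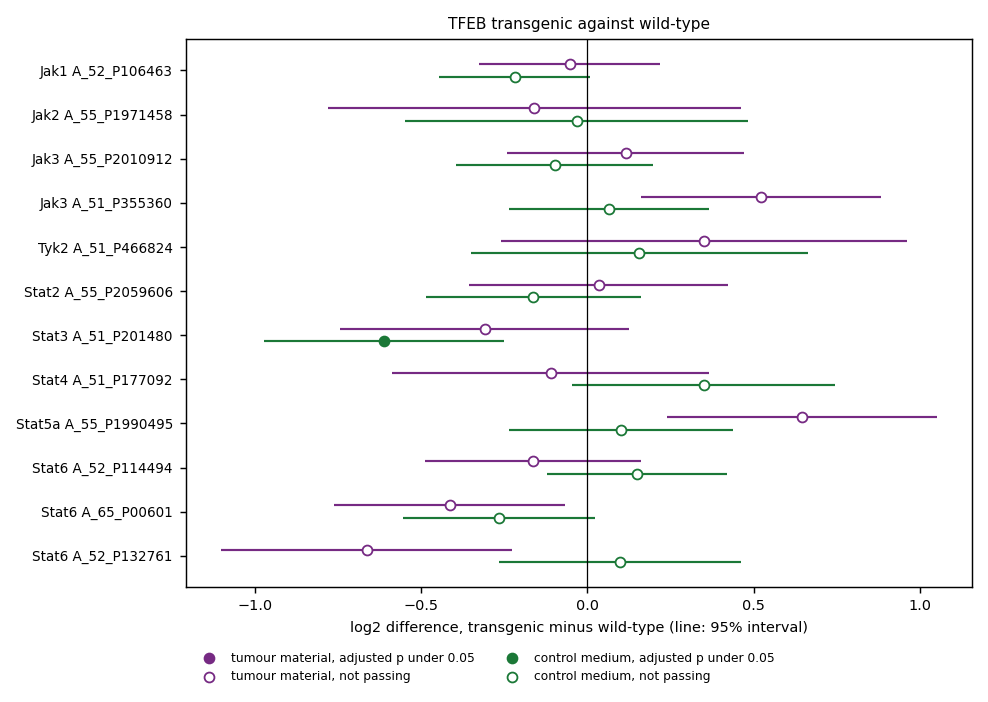
Transgenic minus wild-type cells (log2 difference, x axis) for the 12 probes tested, in tumour material and in control medium; points are fitted differences, filled where the adjusted p is under 0.05, and lines are 95% intervals. Stat3 in control medium (-0.61) is the only filled point.

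Ligands, receptors, inhibitors and associated target genes of the pathway were described by lists, each gene by its brightest probe. Of 20 cytokine ligands 10 were tested, and 6 of these (Clcf1, Csf3, Ifnb1, Il15, Il19 and Il6) passed the filter through tumour groups alone, so a rise with tumour material was built into their selection. Of the other 4 and these 6 together, 7 of 10 were called upward in transgenic and 10 of 10 in wild-type cells, counts that therefore do not describe the list. Folds given as at least a value come from levels not adjusted for slide. In them an undetected group stands, per array, at the higher of the probe's own signal and the lowest signal well above background. That lowest signal is of the dimmest such spot, so these folds are approximate and not strict minima. Il6, the main gp130 cytokine, was at least 101-fold higher with tumour material in transgenic cells, where control arrays were not above background (adjusted p = 9.36e-10). Csf3, which encodes G-CSF, was at least 99.9-fold higher in transgenic and at least 239.6-fold higher in wild-type cells. Between the genotypes in tumour material 5 of 10 ligands fell, where 4.36% of all probes were called in either direction. One of them, Il19, passed the filter through wild-type tumour alone, so its fall was partly fixed by that selection. Il10, an anti-inflammatory Stat3 ligand, was also among them. It averaged 0.16 ± 0.32 in transgenic tumour and 3.19 ± 0.22 in wild-type tumour (SD, n = 2 and 3), a difference of -3.28 (limma, adjusted p = 4.1e-05).

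Of the 22 receptor genes tested, 11 rose and 1 fell in transgenic cells, where 14.7% of all probes rose and 10.2% fell. In wild-type cells 8 rose and 3 fell, against 22.6% and 16.9% of all probes. Osmr passed the filter through tumour groups alone and Lifr through control groups alone, so their directions were partly fixed by it. Il4ra, the receptor chain that recruits Stat6, rose by 2.70 in transgenic cells (adjusted p = 4.06e-05) and by 1.64 in wild-type cells (adjusted p = 0.000108), and the test of the difference between both did not pass (1.06, adjusted p = 0.224). In control medium 6 of 22 receptors fell in transgenic cells, against 5% of all probes, with Il4ra at 2.01 ± 0.37 in transgenic and 3.55 ± 0.39 in wild-type cells (SD, n = 3 each; adjusted p = 0.00164). Il6st, which encodes gp130, differed by 0.15 in transgenic and 0.19 in wild-type cells with tumour material, and Il10ra by -0.44 and -0.17, none passing. The receptors that fell in control medium numbered 3 with a term for slide column 4, which holds 2 of the 3 transgenic control arrays, and 9 without transgenic control replicate 1. Over all probes, 3.46% and 16.4% were called in either direction in these settings, against 8.38% in the fit of the report.

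Of the 19 inhibitors tested, 8 rose and 1 fell in transgenic cells (14.7% and 10.2% of all probes), and 10 rose and 3 fell in wild-type cells (22.6% and 16.9% of all probes). Socs2, a riser in both genotypes, passed the filter through tumour groups alone, so its place in these counts was partly fixed by it. Socs3, which blocks gp130 receptors, averaged 7.15 ± 0.09 in transgenic tumour, 8.15 ± 0.70 in wild-type tumour, -1.47 ± 0.32 in transgenic control and 3.17 ± 0.79 in wild-type control (SD, n = 2, 3, 3 and 3). The transgenic controls lay far below every other group. Socs3 rose by 8.55 on the log2 scale in transgenic cells (adjusted p = 1.75e-07) and by 4.93 in wild-type cells (adjusted p = 6.73e-07), and the responses differed by 3.62 (adjusted p = 0.00718, called in 19 of 24 alternative settings). In control medium it fell by 4.72 in transgenic cells (adjusted p = 2.66e-05). The call was lost within slide 2, where each genotype had 1 control array and a loss says little. Socs1, an inhibitor of interferon receptor kinases, rose by 4.72 in transgenic and 5.33 in wild-type cells.

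Of the 14 targets of the interferon-activated factor that holds Stat2, 11 rose in transgenic cells, against 14.7% of all probes, and 13 in wild-type cells, against 22.6%. Their medians were 1.49 in transgenic and 1.45 in wild-type cells. Rsad2, an antiviral enzyme gene, rose by 2.31 in wild-type cells (adjusted p = 1.45e-05), and Irf9 by 0.43 in transgenic and 0.52 in wild-type cells (adjusted p = 0.0238 and 0.00102). Of 14 genes associated with Stat3, 7 rose in transgenic cells (14.7% of all probes). In wild-type cells 7 rose and 2 fell (22.6% and 16.9% of all probes). In control medium 6 of these 14 fell in transgenic cells, against 5% of all probes, and the list's median was -0.51 against -0.03 over all probes. The 6 became 2 with a term for slide column 4, at a median of -0.52, and 7 without transgenic control replicate 1. In these settings 3.46% and 16.4% of all probes were called in either direction, against 8.38% in the fit of the report. Among the 6 were Nfil3, a repressor that IL-10 induces, at -1.67 (adjusted p = 0.00075), and Bcl3, an NF-kB cofactor, at -1.03 (adjusted p = 0.00361). Of 9 tested genes associated with Stat6, 4 rose and 3 fell in transgenic cells (14.7% and 10.2% of all probes). In wild-type cells 5 rose and 4 fell (22.6% and 16.9% of all probes). Among the risers, Arg1 and Ccl17 passed the filter through tumour groups alone. Arg1, the arginine-degrading enzyme of alternative activation, averaged 0.66 ± 0.26 in transgenic tumour and 6.56 ± 0.08 in wild-type tumour (SD, n = 2 and 3), a difference of -5.66 (adjusted p = 7.43e-08). Neutrophil markers moved with these comparisons: their summed linear level was 31.6 to 35.0 in transgenic tumour, 53.2 to 90.1 in wild-type tumour, 176 to 567 in transgenic control and 232 to 246 in wild-type control. B cell markers summed to 0.871 to 1.04 in transgenic tumour, 0.620 to 1.04 in wild-type tumour, 2.56 to 9.97 in transgenic control and 2.77 to 3.74 in wild-type control, with Cd79a, Ms4a1 and Pax5 above background on no array. Fibroblast markers summed to 7.69 to 8.80 in transgenic tumour, 33.1 to 43.3 in wild-type tumour, 0.936 to 9.77 in transgenic control and 1.39 to 22.3 in wild-type control. Among them Pdgfra was above background on no array, and Lum was at least 2.75-fold higher with tumour material in transgenic and at least 34.3-fold higher in wild-type cells. Dendritic cell markers summed to 2.42 to 4.88 over all groups, with Flt3, Xcr1 and Zbtb46 above background on no array. The part of these cells in the results on members and lists was not tested.

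**Figure D4:**
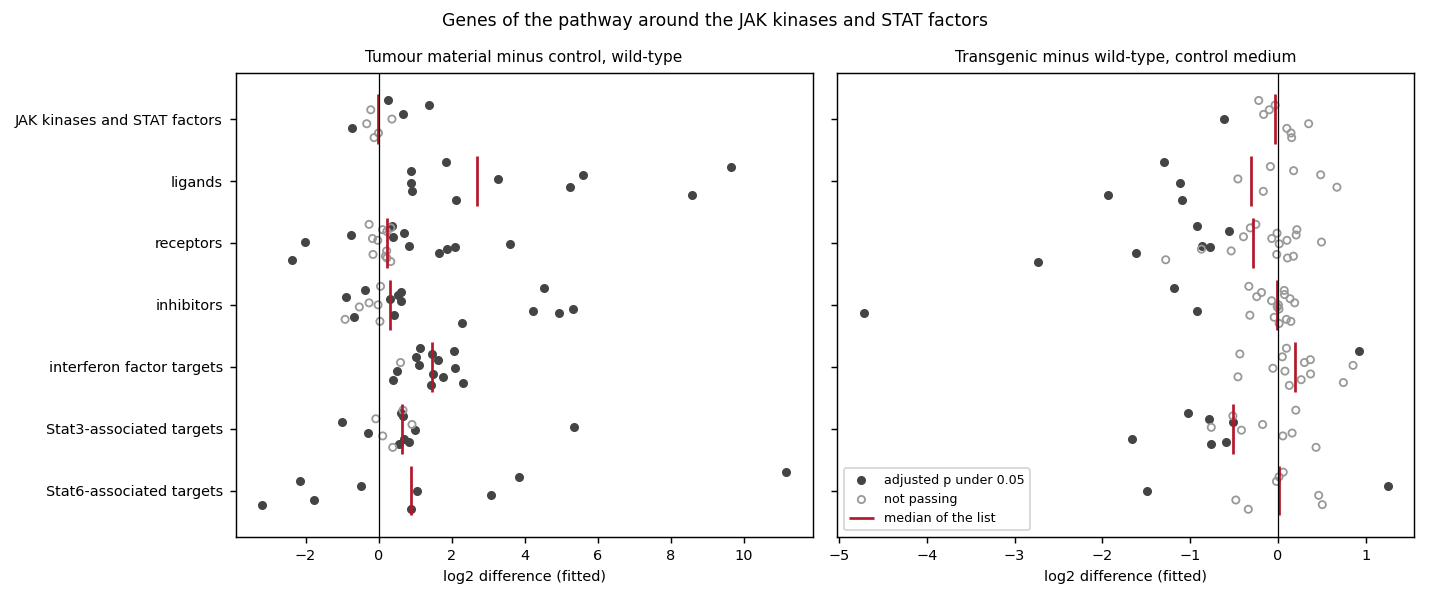
Log2 difference of each tested gene of the members and the 6 pathway lists, for tumour material against control medium in wild-type cells (left) and transgenic against wild-type cells in control medium (right); points are genes, filled where the adjusted p is under 0.05, and red marks are list medians, with undetected genes at their fitted values. Of the 10 ligands, 6 passed the filter through tumour groups alone, so their place on the left was partly fixed by it, and the Stat3-associated median is -0.51 on the right.

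The gene whose levels over the 11 replicates were most like those of Jak2 was Psmd11 (r = 0.991), followed by Slc25a37 (r = 0.988). For Stat2 they were Oas3 (0.995) and Nod2 (0.990), for Stat3 C3 (0.982) and Clec4a1 (0.976), and for Stat5a Tctex1d2 (0.973) and Endod1 (0.972). For Jak1 they were Sacm1l (0.968) and Cept1 (0.966), and for Stat4 Nup210 (0.972) and Izumo4 (0.958). For Jak3 they were 1700001K19Rik (0.933) and Prr5 (0.907), for Tyk2 Prune1 (0.902) and Fam111a (0.835), and for Stat6 Prpf18 (0.909) and Kif24 (0.908). These are the highest of many correlations over samples that share arrays and groups, and they are given as a description.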

How the data were processed

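Bone marrow-derived macrophages of 4 groups were measured on 14 arrays with 62976 spots each, from 200 ng of RNA. Scans were read with Agilent Feature Extraction 10.7.3.1, per the submitters' processing notes. The deposited intensity values are background-subtracted and spatially detrended signals, per the file headers, which also hold marks for spots well above background and uneven spots (166 to 270 spots per array were left out here). The series matrix deposited by the authors holds log2 values, with a median of 2.84 in every column and a correlation of 0.999 or more with the log2 scanner signals.

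Spots of a probe were averaged, and each array's log2 75th percentile was subtracted. Symbols came from RefSeq accessions (28305 probes with 1 symbol, 27329 with none). limma 3.58.1 in R 4.3.3 fitted the 4 group means and slide, with arrays of a replicate as a random block (correlation 0.0581), and p-values were adjusted over 20208 probes. Titles ending in -2 were read as repeat arrays. In 4 simulations with 200 changed probes among 20208, for the wild-type response, 29%, 66% and 93% of 1.5-, 2- and 4-fold changes were recovered and 8.1% of calls were false, with noise at the SD of replicate deviations. With noise at the fit's moderated SD, added after that result was seen, these were 19%, 66.5% and 95%, with 7.14% false. Both false shares exceed the nominal 5%.

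All 9 members were named whatever their values, as were Tfeb, Socs3, Il6st, Il4ra, Il10ra and Irf9. From each list, named genes are among the 2 largest passing rises and falls per comparison. Like genes are the 2 with the highest Pearson r. The members and lists were chosen with earlier results of these data known. Same-numbered replicates did not deviate together (correlations -0.219 to 0.189), so numbers were not taken to pair samples. Alternatives changed the slide term, background correction, normalization, filter, repeat arrays and replicates. Normexp used median spot signals in place of the planned mean signals.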

Additional observations from a re-analysis of the deposited data

How the results depend on the processing

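The counts of probes called among the 12 tested were 5 and 5 for the transgenic and wild-type tumour responses, 0 and 1 for the transgene effect with tumour material and in control medium, and 0 for the difference between responses, and 25 alternative settings were run. No difference with a call reversed its sign in any of them. The wild-type response count was 0 within slide 2, where 4.18% of all probes were called (39.4% over both slides), and 3 with normexp background correction (34.9%). The transgenic response count was 1 within slide 2 (9.99% of all probes, 24.9% over both slides), 3 with normexp, with quantile normalization, with the series matrix values and with repeat arrays left out, and 2 with no filter on dim probes (20.4% to 24.1% of all probes in the first 4 of these, 6.4% with no filter). The transgene effect with tumour material gave 1 call with no slide term (6.83% of all probes) and without the arrays of slide column 4 (9.34%). It also gave 1 call with normexp (4.67%), and 4.36% of all probes were called in the fit of the report. Its effect in control medium gave 0 calls within either slide alone, with a term for slide column 4, with quantile normalization, with the series matrix values, with no filter, with repeat arrays averaged and with repeat arrays left out, where between 0 (slide 2) and 11.7% of all probes were called. Leaving out each replicate in turn gave 1 to 5 calls in transgenic cells, 4 to 6 in wild-type cells, 0 to 3 for the transgene with tumour material, 0 to 2 in control medium and 0 for the difference between responses. The lowest transgenic count was without transgenic tumour replicate 3, and the highest transgene counts were without transgenic control replicate 1. With the replicate block, which the labels do not support as pairing, the counts were 5 and 4 for the transgenic and wild-type responses, 0 and 0 for the transgene effect in tumour material and control medium, and 0 for the difference. Over all probes, leaving out 1 replicate gave 2852 to 6619 calls in transgenic and 4963 to 10034 in wild-type cells, 137 to 2581 and 507 to 3322 for the transgene with tumour material and in control medium, and 53 to 1390 for the difference, each highest without transgenic control replicate 1. The cause was not tested. Within 1 slide fewer arrays enter the fit. On slide 2, transgenic control and both wild-type groups had 1 array each, so counts there say little. Signal near background limits Stat4 and the second Stat3 probe.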
